A study of Mus musculus with 6 samples.

Results

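Known mouse imprinted genes were followed in GFP+ cells sorted from the embryonic aorta-gonad-mesonephros (AGM) region, where blood stem cells arise next to the dorsal aorta. The 32 genes were taken by symbol from a list of known mouse imprinted genes, and all 32 were found among the 51912 genes of the count tables. RNA-seq libraries came from GFP+CD206+ cells (CD206pos, 3 libraries) and from GFP+CD206- cells (CD206neg, 3 libraries). CD206 is the mannose receptor, encoded by Mrc1, and the study calls both populations macrophages. All embryos were MacGreen mice at E10.5, so both groups carried the Csf1r-EGFP transgene, in which the promoter of the colony-stimulating factor 1 receptor drives green fluorescent protein in macrophages and related myeloid cells. Both groups came from 3 litters, and libraries with the same AGM number in their titles were read as the same litter, which the labels do not say outright. Each library held the cells of 3 to 5 AGM, and no cells without the transgene and no single embryos were measured.

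Genomic imprinting is the expression of a gene from the copy inherited from only one parent. It depends on DNA methylation that is laid down differently in eggs and sperm and then kept through development at control regions shared by clusters of neighbouring genes. Many imprinted genes act on embryonic growth, placental function and metabolism, and many are high in embryonic mesenchyme and fall to low levels in mature tissues. Some of the genes followed here, among them Slc22a3, Gatm, Dcn, Ascl2 and Phlda2, are known to be imprinted mainly in the placenta or other extraembryonic tissue. The tables hold reads summed per gene, so they give the amount of RNA and not the parental copy it came from.

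The libraries held between 16730846 and 18214283 reads in genes, so that 3 reads equal 0.165 to 0.179 CPM (read counts scaled to library size). Mrc1, the gene of the sorted protein, had 1585 ± 181 CPM in CD206pos and 93.9 ± 36.8 CPM in CD206neg libraries (SD, n = 3 each). Macrophage markers summed to between 7233 and 10243 CPM in CD206pos and between 5476 and 7127 CPM in CD206neg libraries, with 5 of 10 higher in CD206pos. By DESeq2 6 of the 10 were higher and 1 was lower. Erythroid markers summed to 12.8 to 16.4 CPM in CD206pos and 4.46 to 7.39 CPM in CD206neg libraries, with 0 of 5 tested past the edgeR threshold and 1 higher by DESeq2. Markers of progenitors, granulocytes, megakaryocytes and endothelium had lower sums in CD206pos, as did those of mesonephros and coelom epithelium and of primordial germ cells. The epithelial markers summed to 2.01 to 11.34 CPM in CD206pos against 11.41 to 42.52 CPM in CD206neg libraries. The germ cell markers summed to 0.58 to 1.04 CPM in CD206pos against 1.68 to 2.29 CPM in CD206neg libraries. Of these, 0 of 3 and 0 of 2 tested passed by edgeR, and DESeq2 called 1 epithelial marker lower. Blood progenitor markers summed to 39.4 to 76.8 CPM in CD206pos against 700 to 1014 CPM in CD206neg libraries, with 7 of 10 lower and Kit at 0 reads in every CD206pos library. Granulocyte markers summed to 17.4 to 69.7 CPM in CD206pos against 1861 to 2855 CPM in CD206neg libraries, with 6 of 6 tested markers lower. Megakaryocyte markers summed to 1.28 to 9.97 CPM in CD206pos against 82.7 to 114 CPM in CD206neg libraries, with 2 of 5 tested lower. Endothelial markers summed to 69.8 to 107 CPM in CD206pos against 202 to 339 CPM in CD206neg libraries, with 2 of 10 lower. In both of these lists 1 tested marker had a log2 fold change above 0. These differences lie along the same contrast as every result that follows, their part in the results was not tested, and in bulk RNA fewer cells of a type and less RNA per cell cannot be told apart.

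Of the 32 imprinted genes, 24 passed the read filter of the test and 8 did not. The filter asks for enough reads in enough libraries, so a gene with reads in few libraries can fail it. A test across all 12668 testable genes (edgeR, quasi-likelihood F test, Benjamini-Hochberg adjusted p under 0.05) called 4.87% of genes, with 2.97% higher and 1.9% lower in CD206pos. Among the 24 imprinted genes 2 passed, Slc22a3 and Peg12, both lower in CD206pos, which is 8.33% of those tested. With the litter as a replicate block, which called 5.55% of all genes, 3.44% as higher and 2.11% as lower, 2 were lower (Slc22a3 and H19) and 2 higher (Gatm and Impact). In the test without the block 0 passed as higher. At an unadjusted p under 0.05, 4 of the 24 were higher and 5 lower. DESeq2 called 1 higher and 5 lower, and limma-voom 2 higher and 2 lower. Over all tested genes an unadjusted p under 0.05 gave 9.53% higher and 8.05% lower, DESeq2 5.21% higher and 4.34% lower, and limma-voom 4.03% higher and 2.06% lower. The median log2 fold change of the 24 was -0.76, beside -0.0043 over all tested genes, and it was -0.76 too with Slc22a3 set to the bound given below. Of the 24, 19 had a log2 fold change below 0 and 5 above. The 3 libraries of CD206pos lay wholly outside the range of CD206neg for 10 of the 24, with 3 above and 7 below. Of all tested genes 24.6% did so, 12.8% above and 11.8% below. A gene with no reads in one group passes the read filter only through the other group, as Slc22a3 did, so these counts describe the genes that passed and not the whole set.

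**Figure D1:**
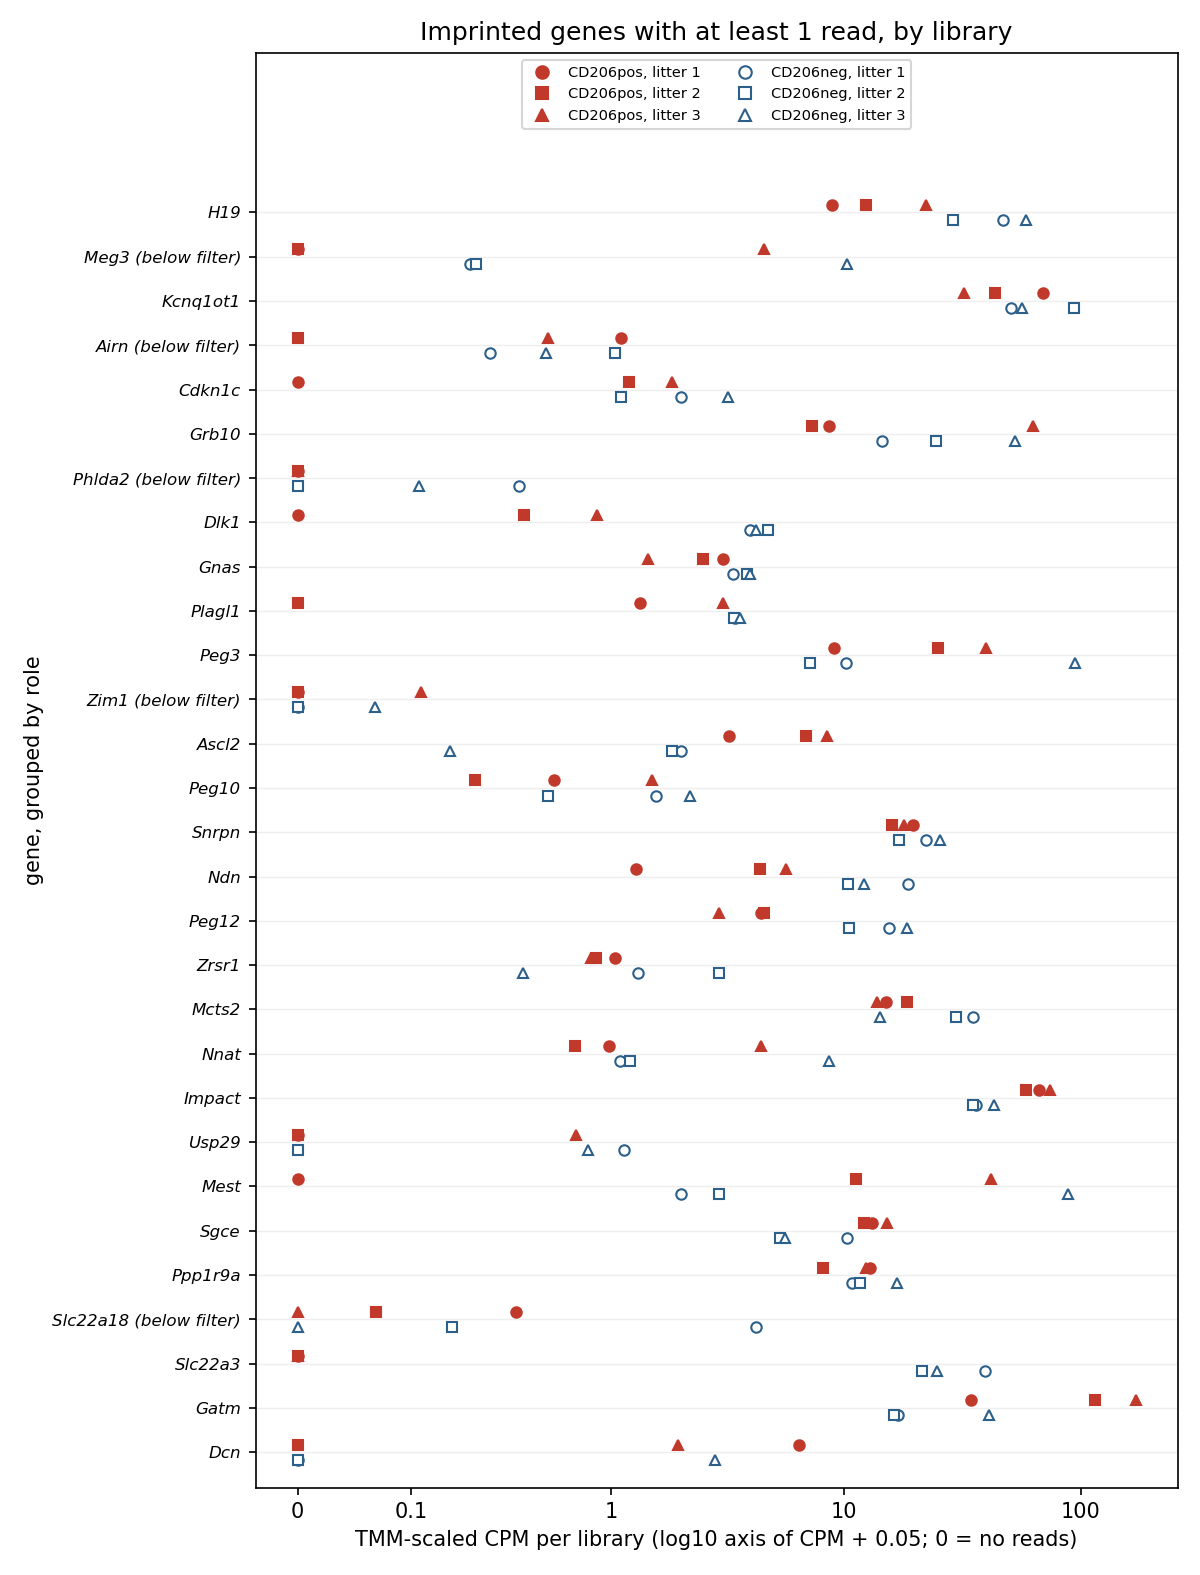
Scaled CPM (log10 axis with 0.05 added) of the 29 imprinted genes with at least 1 read, grouped by role. Filled red symbols are the 3 CD206pos libraries, open blue symbols the 3 CD206neg libraries, and the shape gives the litter. Slc22a3 is at 0 in all CD206pos libraries and at 21.3 to 39.3 CPM in CD206neg.

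Slc22a3 (ENSMUSG00000023828.2, GRCm38 chr17:12419972-12507704, minus strand) encodes organic cation transporter 3, a membrane carrier of monoamines and other cations. It had 0, 0 and 0 reads in the CD206pos libraries of litters 1, 2 and 3, and 39.3, 21.3 and 24.7 CPM in the CD206neg libraries. No read of it was counted in CD206pos, against 1528 reads over the 3 CD206neg libraries. Against a floor of 3 reads over the group it was at least 484.5-fold lower in CD206pos (edgeR adjusted p = 0.0011). The call held without any 1 library and was lost without litter 2, where the adjusted p was 0.075. Its position overlaps the exons of no other gene.

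Slc22a3 lies in the Igf2r cluster of chromosome 17, where the noncoding RNA Airn is expressed from the paternal copy and silences neighbours on that copy in the placenta. Airn itself did not pass the read filter, with 18, 0 and 9 reads in the CD206pos and 5, 18 and 9 in the CD206neg libraries. Igf2r, the mannose 6-phosphate receptor of the same cluster, had 10.1, 6.76 and 12.1 CPM in CD206pos and 6.81, 3.59 and 14.1 CPM in CD206neg libraries. Its groups overlapped and it did not pass (log2 fold change 0.24, 95% interval -0.97 to 1.46).

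Peg12 (ENSMUSG00000070526.2, chr7:62461871-62464510, minus strand), also named Frat3, is an intronless gene of the Prader-Willi region that is expressed from the paternal copy. Its relatives Frat1 and Frat2 encode inhibitors of the kinase GSK-3 and promote Wnt signalling. Peg12 had 4.46, 4.58 and 2.95 CPM in CD206pos and 15.6, 10.54 and 18.6 CPM in CD206neg libraries. Every CD206pos library was below every CD206neg library. The mean was 3.72-fold lower in CD206pos, with a log2 fold change of -1.90 ± 0.40 (SE) and an edgeR adjusted p of 0.033. With the litter as a replicate block the adjusted p was 0.066, and without any 1 library it was between 0.061 and 0.12, so the call rests on all 6 libraries together.

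The promoters of the called genes, and of both relatives of Peg12, are shown because the called genes differ in their density of CG dinucleotides, the sites that DNA methylation marks. Each window runs from 250 bases before to 50 bases after the gene's start, on the gene's own strand, from RefSeq on GRCm38.p6, and CG is in capitals. The windows are chr17:12507655-12507954 (minus strand) for Slc22a3, chr7:62464461-62464760 (minus strand) for Peg12, chr19:41829720-41830019 (plus strand) for Frat1 and chr19:41848083-41848382 (minus strand) for Frat2.
Slc22a3: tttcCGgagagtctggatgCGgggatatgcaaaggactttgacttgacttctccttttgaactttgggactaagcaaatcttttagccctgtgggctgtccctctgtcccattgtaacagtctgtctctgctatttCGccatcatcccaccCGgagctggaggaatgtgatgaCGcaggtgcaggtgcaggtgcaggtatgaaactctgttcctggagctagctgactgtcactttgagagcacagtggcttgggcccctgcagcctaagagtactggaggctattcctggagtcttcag
Peg12: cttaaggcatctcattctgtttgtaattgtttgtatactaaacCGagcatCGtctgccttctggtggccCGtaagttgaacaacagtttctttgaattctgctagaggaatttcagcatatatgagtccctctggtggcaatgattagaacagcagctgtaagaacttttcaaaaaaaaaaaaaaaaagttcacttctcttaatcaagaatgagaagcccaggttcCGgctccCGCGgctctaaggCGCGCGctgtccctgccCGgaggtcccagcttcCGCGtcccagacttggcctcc
Frat1: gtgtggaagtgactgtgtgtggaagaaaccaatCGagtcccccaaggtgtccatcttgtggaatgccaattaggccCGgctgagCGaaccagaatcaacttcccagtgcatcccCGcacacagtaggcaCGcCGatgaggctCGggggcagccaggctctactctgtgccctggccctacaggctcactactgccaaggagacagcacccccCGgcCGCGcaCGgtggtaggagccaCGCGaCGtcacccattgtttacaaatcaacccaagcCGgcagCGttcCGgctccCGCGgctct
Frat2: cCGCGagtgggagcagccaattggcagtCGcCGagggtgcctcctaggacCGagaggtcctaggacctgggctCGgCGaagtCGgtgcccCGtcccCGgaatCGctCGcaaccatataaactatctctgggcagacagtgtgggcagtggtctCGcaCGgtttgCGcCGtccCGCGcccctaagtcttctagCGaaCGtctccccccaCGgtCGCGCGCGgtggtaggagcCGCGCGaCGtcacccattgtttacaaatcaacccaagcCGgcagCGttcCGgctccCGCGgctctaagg

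The Slc22a3 window held 5 CG, a number that 62% of all 32851 promoters of the RefSeq table reach. Peg12 held 12 (39.6% of promoters reach it), Frat1 held 19 (28.1%) and Frat2 held 34 (7.73%). Over the 36 promoters found for 25 imprinted genes, with Impact left out, the median was 13 CG, beside 7 over all promoters, so Slc22a3 lay below both medians. Peg12 shares an exact run with both relatives, which was looked for after their levels were seen. The run gttcCGgctccCGCGgctct is 20 bases long and occurs in these 3 promoters and in no other of the table.

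Frat1 and Frat2 did not follow Peg12 past the test. Frat1 had 3.24, 5.10 and 6.13 CPM in CD206pos and 5.94, 5.85 and 13.3 CPM in CD206neg libraries, with overlapping groups (log2 fold change -0.79, 95% interval -1.95 to 0.37). Frat2 had 2.38, 1.26 and 1.68 CPM in CD206pos and 2.23, 1.39 and 0.677 CPM in CD206neg libraries (0.31, interval -1.70 to 2.31). The difference between Peg12 and either relative was not tested, and reads that fit more than 1 of these related genes were not counted for any.

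The other Prader-Willi region genes were Ndn, Snrpn and Magel2. Ndn, which encodes the growth-restraining MAGE protein necdin, had 1.28, 4.41 and 5.67 CPM in CD206pos and 18.7, 10.4 and 12.1 CPM in CD206neg libraries. The groups did not overlap, yet the test was not passed (log2 fold change -1.86 ± 0.57, adjusted p = 0.12), while DESeq2 gave an adjusted p of 0.026 and the other alternatives 0.076 to 0.40. Snrpn, which encodes a splicing protein of the SmN type, had 19.6, 15.9 and 17.9 CPM in CD206pos and 22.3, 17.03 and 25.6 CPM in CD206neg libraries, and its groups overlapped (-0.28, 95% interval -0.89 to 0.33). Of the exon bases of Snrpn 34.1% are shared with other genes, Snurf among them, and reads there were not counted. Magel2, a further MAGE gene, had 0 reads in every library.

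The noncoding RNAs began with H19 (ENSMUSG00000000031.15, chr7:142575529-142578143, minus strand), an RNA expressed from the maternal copy that gives rise to a microRNA and shares enhancers with Igf2. H19 had 8.86, 12.4 and 22.3 CPM in CD206pos and 46.9, 29.0 and 58.6 CPM in CD206neg libraries. Every CD206pos library lay below every CD206neg library, and the mean was 3.09-fold lower in CD206pos. The edgeR test was missed by a small margin (log2 fold change -1.62 ± 0.40, adjusted p = 0.057). With the litter as a replicate block the adjusted p was 0.030, with DESeq2 0.0016, with the looser filter 0.030, with the stricter filter 0.024 and without the CD206pos library of litter 3 0.036. In the other 12 alternatives it was between 0.052 and 0.28, among them 0.061 with limma-voom, and H19 was not called.

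Igf2, a fetal growth factor expressed from the paternal copy and the partner of H19 on chromosome 7, was lower in CD206pos. Igf2 had 1.83, 2.58 and 13.5 CPM in CD206pos and 108, 74.8 and 57.2 CPM in CD206neg libraries (log2 fold change -3.74 ± 0.71, adjusted p = 0.023). The lowest CD206neg library was above the highest CD206pos library by a wide gap. The call was lost in 7 of the 9 fits that left out a library or a litter, with an adjusted p of up to 0.26, and it held without the CD206pos library of litter 3 and without litter 3.

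Kcnq1ot1, the paternal noncoding RNA that controls the Cdkn1c cluster, had 69.6, 43.5 and 32.2 CPM in CD206pos and 50.9, 93.9 and 56.8 CPM in CD206neg libraries. The groups overlapped (log2 fold change -0.47, 95% interval -1.23 to 0.29). Its annotated exon spans 84395 bases, so per length it was low, at 1.66 ± 0.588 TPM in CD206pos and 2.53 ± 0.924 TPM in CD206neg libraries (length-scaled levels that sum to the same total in each library, SD, n = 3 each). Kcnq1, the potassium channel gene it runs opposite to, had 0 reads in every library. Meg3, the maternal noncoding RNA of the Dlk1 cluster, did not pass the read filter, since its reads lay in too few libraries. It had 0, 0 and 79 reads in the CD206pos and 4, 4 and 182 in the CD206neg libraries, nearly all in litter 3.

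Growth regulators did not pass the test. Dlk1, a transmembrane protein related to Notch ligands that marks fetal and stromal progenitors, had 0, 0.401 and 0.868 CPM in CD206pos and 3.98, 4.75 and 4.23 CPM in CD206neg libraries. Its groups were apart and its mean was 10.2-fold lower in CD206pos, from 22 reads over the CD206pos and 230 over the CD206neg libraries (log2 fold change -3.33 ± 1.18, adjusted p = 0.18, with DESeq2 0.029 and in the other alternatives 0.11 to 0.60). Cdkn1c, which encodes the cell cycle inhibitor p57, had 0, 1.20 and 1.85 CPM in CD206pos and 2.02, 1.10 and 3.21 CPM in CD206neg libraries (-1.04, 95% interval -4.09 to 2.00). Grb10, an adaptor that restrains insulin receptor signalling, had 8.62, 7.33 and 62.7 CPM in CD206pos and 14.5, 24.6 and 52.7 CPM in CD206neg libraries. Grb10 was highest in litter 3 in both groups and its groups overlapped (-0.22, interval -2.08 to 1.63). Gnas, which encodes the stimulatory G protein subunit, had 3.06, 2.52 and 1.45 CPM in CD206pos and 3.38, 3.88 and 4.00 CPM in CD206neg libraries. The groups did not overlap, without passing the test (-0.68, interval -2.13 to 0.77). These are few reads for a widely expressed gene, 119 over the CD206pos and 200 over the CD206neg libraries. Of its exon bases 22% are shared with antisense genes, and whether reads of Gnas were lost in the counting was not tested, so its level is uncertain. Phlda2, a restrainer of placental growth, had 0 reads in CD206pos and 7, 0 and 2 in CD206neg libraries.

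Among the transcription factors, Ascl2 had the opposite direction. Ascl2, a basic helix-loop-helix factor needed for the trophoblast, had 3.24, 6.87 and 8.50 CPM in CD206pos and 2.02, 1.85 and 0.169 CPM in CD206neg libraries. All CD206pos libraries were above all CD206neg libraries, and the test was not passed (log2 fold change 2.20 ± 0.90, adjusted p = 0.25). Plagl1, a zinc finger factor that arrests growth, had 1.34, 0 and 3.07 CPM in CD206pos and 3.43, 3.42 and 3.61 CPM in CD206neg libraries (-1.24, 95% interval -4.10 to 1.62). Peg3, a zinc finger factor of the paternal copy, had 9.05, 25.0 and 39.7 CPM in CD206pos and 10.2, 7.18 and 94.8 CPM in CD206neg libraries. Its direction depended on the fit, with a log2 fold change of -0.60 and of 0.08 with the litter as a replicate block. Zim1, its maternal zinc finger neighbour, had 0, 0 and 2 reads in CD206pos and 0, 0 and 1 read in CD206neg libraries.

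The genes with higher levels in CD206pos that came nearest to the threshold were Impact and Gatm. Impact (ENSMUSG00000024423.5, chr18:12972252-12992948, plus strand) encodes an inhibitor of the stress kinase GCN2 and so bears on translation during amino acid shortage. Impact had 66.5, 58.8 and 74.5 CPM in CD206pos and 36.3, 35.3 and 43.2 CPM in CD206neg libraries. The groups were apart, and the mean was 1.74-fold higher in CD206pos (log2 fold change 0.80 ± 0.19, adjusted p = 0.052). With the litter as a replicate block the adjusted p was 0.045, with DESeq2 0.0067, with the stricter filter 0.042 and with limma-voom 0.040. In the other alternatives it was between 0.058 and 0.35, and Impact was not called.

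Gatm (ENSMUSG00000027199.14, chr2:122594467-122611303, minus strand) encodes the mitochondrial amidinotransferase of creatine synthesis. Gatm had 34.6, 115 and 170 CPM in CD206pos and 16.9, 16.3 and 40.9 CPM in CD206neg libraries. The lowest CD206pos library lay below the highest CD206neg library, though within each of the 3 litters CD206pos was higher. The mean was 4.32-fold higher in CD206pos (log2 fold change 2.11 ± 0.58, adjusted p = 0.085). With the litter as a replicate block the log2 fold change was 1.98 and the adjusted p 0.025, and without the CD206pos library of litter 1 the values were 2.53 and 0.027. The adjusted p was 0.039 with the stricter filter and 0.042 with limma-voom, and in the other alternatives, DESeq2 included at 0.052, it reached up to 0.51 and Gatm was not called.

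**Figure D2:**
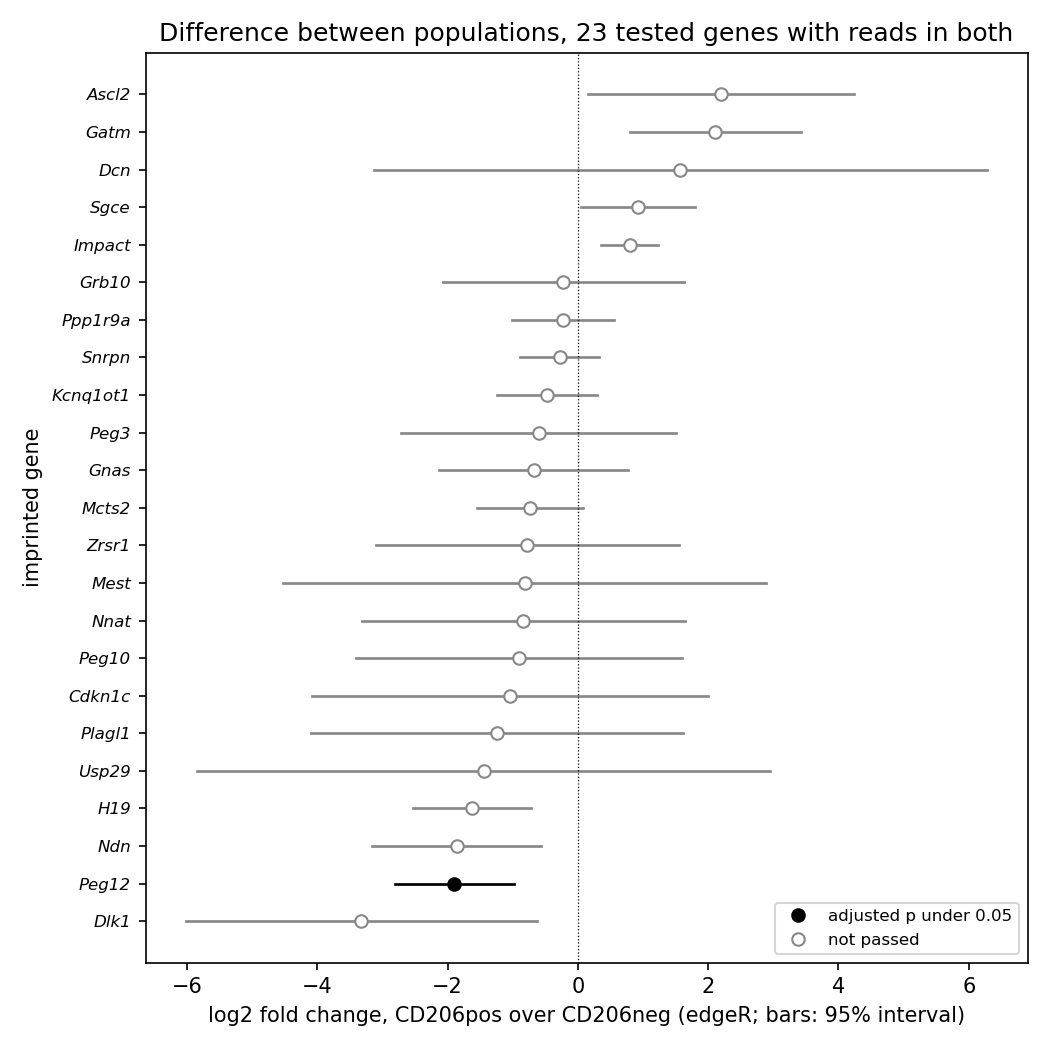
Log2 fold change (CD206pos over CD206neg, horizontal axis) of the tested imprinted genes with reads in both groups, with 95% intervals from edgeR as bars. Peg12 is the filled point past the threshold, and Slc22a3, with 0 reads in CD206pos, is not drawn.

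The other enzyme, membrane and matrix genes differed by less than the test could separate. Sgce, which encodes epsilon-sarcoglycan of the muscle membrane complex, had 13.1, 12.2 and 15.3 CPM in CD206pos and 10.3, 5.33 and 5.64 CPM in CD206neg libraries, with groups apart (log2 fold change 0.93 ± 0.38, adjusted p = 0.25). Ppp1r9a, an actin-binding scaffold of protein phosphatase 1, had 12.9, 8.19 and 12.4 CPM in CD206pos and 10.8, 11.7 and 16.7 CPM in CD206neg libraries, with overlapping groups (-0.23, 95% interval -1.01 to 0.56). Mest, an enzyme of the alpha/beta hydrolase fold that is typical of embryonic mesenchyme, had 0, 11.3 and 41.9 CPM in CD206pos and 2.02, 2.95 and 88.7 CPM in CD206neg libraries. Mest ranged more within each group than between them (-0.82, interval -4.52 to 2.89), and 23.1% of its exon bases are shared with Copg2 on the opposite strand. Dcn, which encodes the matrix proteoglycan decorin, had 6.48, 0 and 1.97 CPM in CD206pos and 0, 0 and 2.82 CPM in CD206neg libraries, too uneven to place (1.58, interval -3.14 to 6.29). Slc22a18, a membrane transporter of the Cdkn1c cluster, did not pass the read filter. It had 6, 1 and 0 reads in the CD206pos and 78, 3 and 0 in the CD206neg libraries.

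Retrogenes and other genes nested inside a host gene came next, with values of a host or source gene given for Mcts2 and Zrsr1. Mcts2, a copy of the translation factor gene Mcts1 that lies inside H13, had 15.04, 18.5 and 13.8 CPM in CD206pos and 35.0, 29.7 and 14.2 CPM in CD206neg libraries. Only the CD206neg library of litter 3 lay within the CD206pos range, and the test was not passed (log2 fold change -0.74 ± 0.36, adjusted p = 0.34). Mcts1 had 91.7, 60.9 and 52.2 CPM in CD206pos and 71.5, 70.4 and 69.5 CPM in CD206neg libraries (-0.05, 95% interval -0.56 to 0.47). H13, a signal peptide peptidase gene, averaged 132 ± 23.2 CPM in CD206pos and 196 ± 23.8 CPM in CD206neg libraries without passing (adjusted p = 0.12). Zrsr1, a splicing factor copy inside Commd1, had 1.04, 0.859 and 0.810 CPM in CD206pos and 1.31, 2.95 and 0.395 CPM in CD206neg libraries, and its source Zrsr2 averaged 34.6 ± 15.8 CPM in CD206pos and 38.9 ± 4.35 CPM in CD206neg libraries. Nnat, a small membrane protein gene inside Blcap, had 0.978, 0.687 and 4.45 CPM in CD206pos and 1.09, 1.22 and 8.63 CPM in CD206neg libraries. Nap1l5, inside Herc3, had 0 reads in every library.

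Remaining genes were near the limit of detection. Peg10, a gene derived from a retrotransposon and needed in the placenta, had 0.550, 0.229 and 1.504 CPM in CD206pos and 1.58, 0.521 and 2.20 CPM in CD206neg libraries (log2 fold change -0.91, 95% interval -3.41 to 1.60). Rtl1, the other such gene, had 0 reads in every library. Usp29, a ubiquitin protease gene next to Peg3, had 0, 0 and 0.694 CPM in CD206pos and 1.14, 0 and 0.789 CPM in CD206neg libraries. At this depth a gene with 0 reads in a library is one below about 0.165 to 0.179 CPM, and these counts do not show that it is silent.

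Sorted by the copy that is known to be expressed, the 2 called genes fell on different sides. Of 19 genes expressed from the paternal copy 15 were tested, with 1 lower (Peg12), 0 higher and a median log2 fold change of -0.82. Of 11 expressed from the maternal copy 7 were tested, with 1 lower (Slc22a3), 0 higher and a median of -0.23. Slc22a3, Gatm, Dcn and Ascl2 among them are known to be imprinted mainly in the placenta or other extraembryonic tissue. The copy expressed in these cells was not measured. At an unadjusted p under 0.05 the paternal genes had 2 higher and 3 lower and the maternal genes 2 and 2, and DESeq2 called 1 higher and 3 lower paternal and 0 higher and 2 lower maternal genes, to be read beside the shares over all genes given above for the same thresholds. Grb10 and Gnas, whose expressed copy depends on the tissue, were both tested and neither passed.

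Per length, different genes led in the 2 groups. In CD206pos Gatm was highest at 105 ± 68.1 TPM, then Impact at 56.4 ± 6.42 TPM and Mcts2 at 50.2 ± 9.41 TPM (SD, n = 3). These 3 did not differ beyond their spread, and Snrpn followed at 23.9 ± 1.45 TPM. In CD206neg Mcts2 was highest at 90.5 ± 36.1 TPM, then H19 at 59.9 ± 19.9 TPM and Impact at 35.4 ± 4.32 TPM, where Mcts2 and H19 lay within their spread. Gatm stood above 84.7% of tested genes in CD206pos and above 58.6% in CD206neg, and H19 above 52.5% in CD206pos and 74.3% in CD206neg. All 32 genes summed to 199, 317 and 434 TPM in CD206pos and 369, 299 and 458 TPM in CD206neg libraries, so the sums overlapped.

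**Figure D3:**
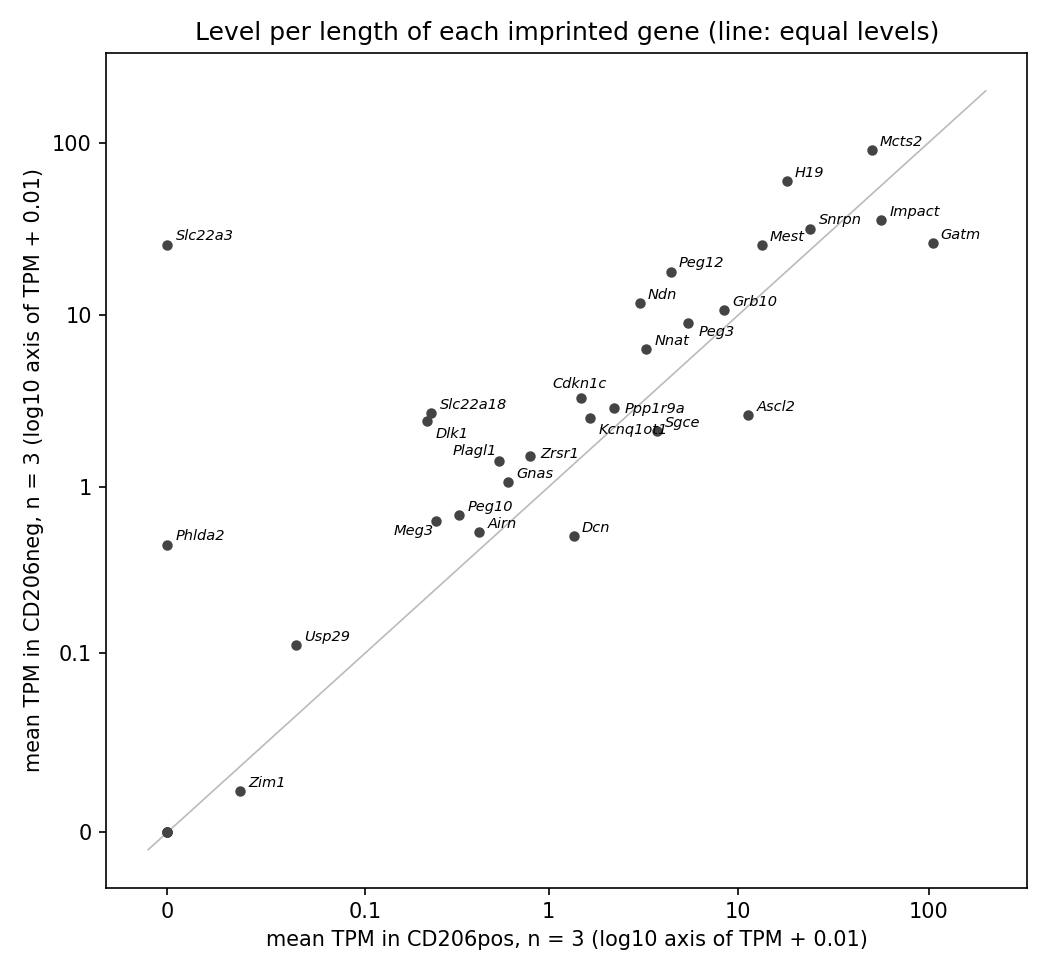
Mean level per length (TPM, log10 axes with 0.01 added) of the 32 imprinted genes in CD206pos (horizontal axis) and CD206neg (vertical axis), n = 3 libraries each, with a line of equal levels. Gatm, Impact, Ascl2, Sgce, Dcn and, with 2 reads in CD206pos and 1 in CD206neg, Zim1 lie to the CD206pos side. The 3 genes with 0 reads coincide at the origin.

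Several of these genes were also uneven across the litters, as ranked by library, and no difference between litters was tested. Litter 3 gave the highest library in both groups for 10 of the 24 tested genes (41.7%), namely Cdkn1c, Gatm, Grb10, H19, Impact, Mest, Nnat, Peg10, Peg3 and Plagl1, where it did so for 14.5% of all tested genes. Litter 1 did so for 0 of the 24 and 16.9% of all genes, and litter 2 for 0 of the 24 and 9.91%. The median coefficient of variation within a group was 0.60 in CD206pos and 0.40 in CD206neg for the tested imprinted genes, and 0.25 in CD206pos and 0.22 in CD206neg over all tested genes.

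The size of the litter 3 difference was uneven among the genes, which were picked for this comparison after their values were seen. Mest in litter 3 was 7.42 times its mean in litters 1 and 2 in CD206pos and 35.7 times in CD206neg libraries. Peg3 was 2.33 times in CD206pos and 10.9 times in CD206neg, and Grb10 7.86 times in CD206pos and 2.69 times in CD206neg. Nnat was 5.35 times in CD206pos and 7.48 times in CD206neg. Cdkn1c was 3.08 times in CD206pos and 2.06 times in CD206neg, and Peg10 3.86 times in CD206pos and 2.09 times in CD206neg. Dcn went the other way in CD206pos, at 0.61 times, and in CD206neg had reads only in litter 3. Stromal markers moved with the same litter. The 12 markers summed to 5.38, 2.01 and 63.2 CPM in CD206pos and 5.12, 9.09 and 87.8 CPM in CD206neg libraries of litters 1, 2 and 3. Col1a1, the collagen I chain gene, had 0.795, 0.344 and 18.7 CPM in CD206pos and 0, 0.0579 and 17.5 CPM in CD206neg libraries, and Col3a1 had 0.979, 0.0573 and 30.8 CPM in CD206pos and 0, 0 and 30.3 CPM in CD206neg. Of the 12 stromal markers 5 were tested and 0 passed between CD206pos and CD206neg by edgeR, DESeq2 or limma-voom, with 0 at an unadjusted p under 0.05. Col5a1 and Twist1 had 0 reads in all CD206pos libraries. The sums of epithelial and macrophage markers were also highest in litter 3 in both groups. Epithelial markers summed to 3.79, 2.01 and 11.3 CPM in CD206pos and 17.4, 11.4 and 42.5 CPM in CD206neg libraries. Macrophage markers summed to 7233, 9371 and 10243 CPM in CD206pos and 5476, 6622 and 7127 CPM in CD206neg libraries. The part of these markers in the imprinted genes was not tested. Without litter 3, by edgeR, Slc22a3 was still called and no other of the 32 genes was.

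**Figure D4:**
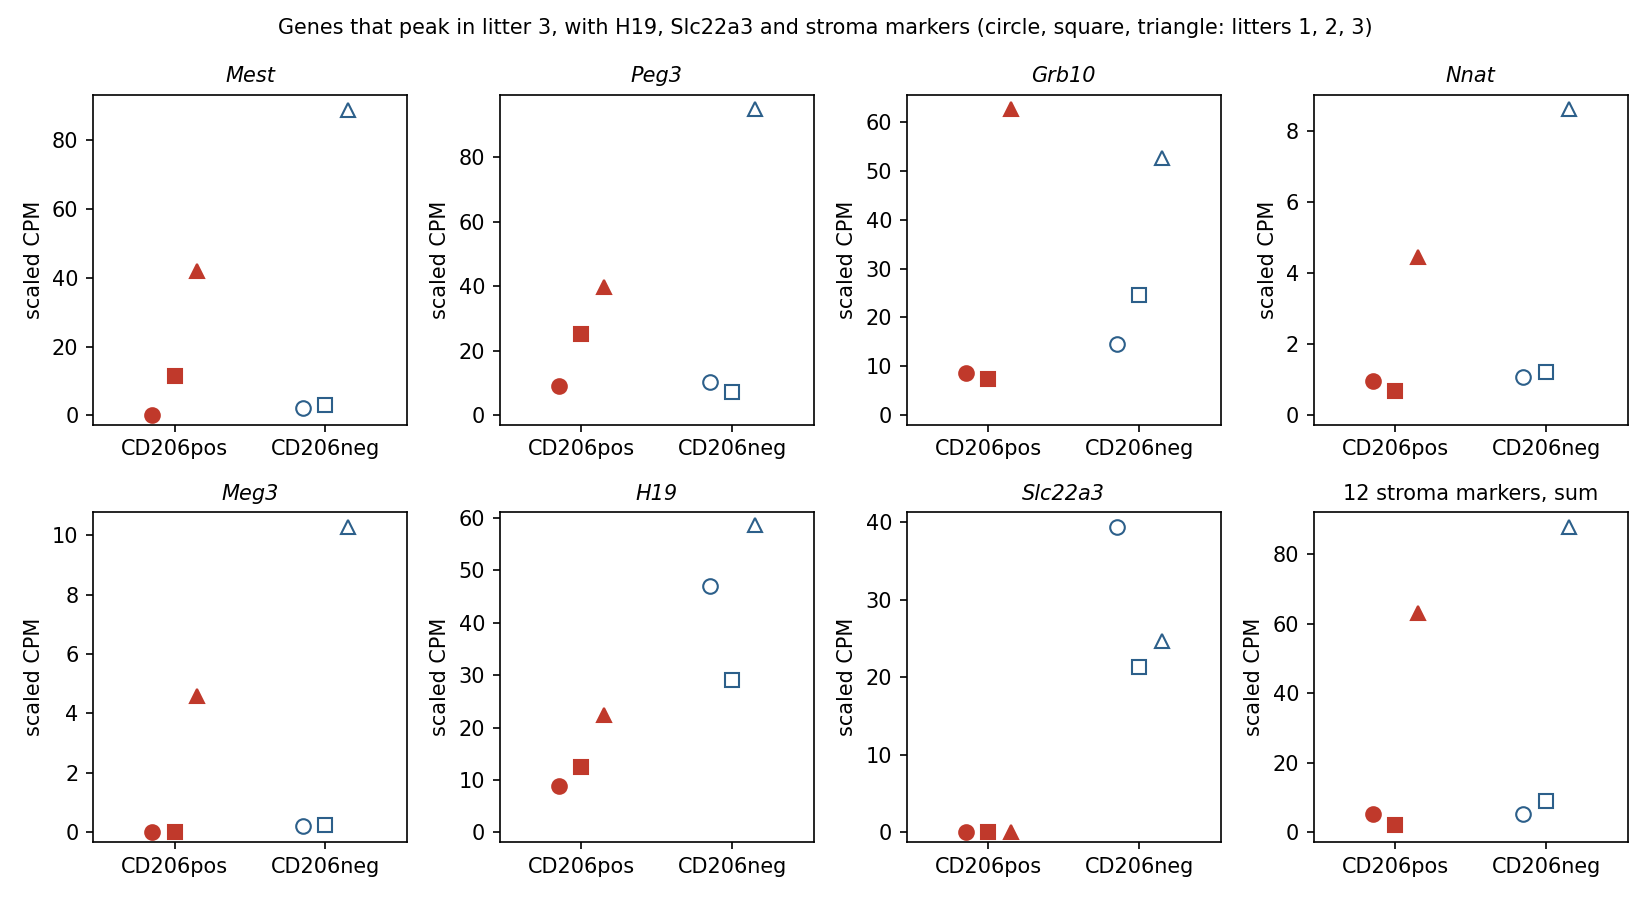
Scaled CPM (vertical axes, linear) of Mest, Peg3, Grb10, Nnat, Meg3, H19 and Slc22a3 and of the sum of 12 stromal markers, picked after their values were seen. CD206pos libraries are filled red, CD206neg libraries open blue, and circle, square and triangle are litters 1, 2 and 3. All panels but that of Slc22a3 have the highest point of both groups in litter 3.

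A list of 46 other imprinted genes was set beside these. Of the 46, 26 were tested and 7 passed (26.9%, beside 4.87% of all tested genes), with 4 higher and 3 lower in CD206pos (2.97% and 1.9% of all tested genes) and a median log2 fold change of -0.06. The list was chosen with earlier results of these data known, so this share describes the list and tests nothing. Osbpl5, among the 7, had no reads in CD206pos and passed the read filter only through CD206neg. Gab1, a docking adaptor of growth factor receptors, averaged 44.9 ± 9.16 CPM in CD206pos and 11.7 ± 2.93 CPM in CD206neg libraries (adjusted p = 0.0073). Pon2 and Pon3 encode neighbouring paraoxonases. Pon2 averaged 127 ± 5.56 CPM in CD206pos and 74.8 ± 9.97 CPM in CD206neg libraries (adjusted p = 0.032), and Pon3 averaged 80.0 ± 22.7 CPM in CD206pos and 37.4 ± 6.42 CPM in CD206neg (adjusted p = 0.046). Cd81, a tetraspanin gene, averaged 565 ± 53.2 CPM in CD206pos and 360 ± 52.7 CPM in CD206neg libraries (adjusted p = 0.046). All 3 other scalings lost the calls of Cd81 and Pon3, with adjusted p between 0.053 and 0.070 for Cd81 and between 0.052 and 0.069 for Pon3.

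The lower genes beside Igf2 were Atp10a and Osbpl5. Atp10a, a lipid flippase gene near the Prader-Willi region, averaged 3.88 ± 0.366 CPM in CD206pos and 15.2 ± 3.34 CPM in CD206neg libraries (adjusted p = 0.019). Osbpl5, an oxysterol-binding protein gene of the Cdkn1c cluster, had 0 reads in CD206pos and 5.72, 0.927 and 2.37 CPM in CD206neg libraries, at least 51.2-fold lower (adjusted p = 0.043, with the litter as a replicate block 0.095). In the 9 fits that left out a library or a litter, the adjusted p reached 0.12 for Gab1, 0.40 for Pon2, 0.41 for Pon3, 0.47 for Cd81, 0.30 for Atp10a and 0.19 for Osbpl5, and the direction stayed as given in all of them.

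Genes that set or keep imprints were counted in the same way. Of 33 listed 30 were tested, with 0 higher, 1 lower and a median log2 fold change of -0.19. The called gene is 3.33% of those tested, beside 1.9% lower and 4.87% called over all tested genes. At an unadjusted p under 0.05 there were 1 higher and 5 lower, DESeq2 called 0 and 2, and limma-voom 0 and 1. Over all tested genes these shares were 9.53% and 8.05%, then 5.21% and 4.34%, then 4.03% and 2.06%. The lower gene was Dnmt3b, a methyltransferase that sets new DNA methylation, with 28.7, 28.9 and 23.2 CPM in CD206pos and 213, 145 and 73.3 CPM in CD206neg libraries. The groups of Dnmt3b were far apart (log2 fold change -2.41 ± 0.36, adjusted p = 0.0076), and the call was lost without litter 1 or without litter 2, with an adjusted p of up to 0.18. Dnmt1, which copies methylation at cell division, averaged 406 ± 96.0 CPM in CD206pos and 450 ± 64.2 CPM in CD206neg libraries (-0.15, 95% interval -0.60 to 0.31). Trim28, the corepressor that holds imprints, averaged 162 ± 24.6 CPM in CD206pos and 220 ± 6.47 CPM in CD206neg (adjusted p = 0.17), and the imprint-binding factor Zfp57 averaged 2.35 ± 1.47 CPM in CD206pos and 1.54 ± 0.0378 CPM in CD206neg.

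Host and neighbour genes gave a call only under some alternatives. Of 16 listed 12 were tested, with 0 called by edgeR, 1 higher and 2 lower at an unadjusted p under 0.05, and 2 lower by DESeq2 and 1 lower by limma-voom. With the litter as a replicate block 1 was called, Ltv1, a ribosome assembly gene near Plagl1, named after its values were seen (log2 fold change -0.60, adjusted p = 0.035, against 0.16 without the block). Of 16 source and relative genes 13 were tested, with 0 called by edgeR, 2 higher and 1 lower at an unadjusted p under 0.05, and 1 higher by DESeq2 and by limma-voom. The counts of both lists are to be read beside the shares over all tested genes given above for the same thresholds.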

How the data were processed

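Read counts per gene were used as deposited. The authors made these raw counts with featureCounts 1.5.2 over the exons of GENCODE vM14, per the file headers, with no option for strand, pairs, multi-mapping reads or overlapping genes. The submitters' processing notes name FastQC, STAR 2.3 and Subread, with mm10 and GRCm38.p5 as builds. Reads that fit several places, or exons shared by genes, are by default not counted, and strands were not separated.

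Symbols were matched by gene identifier without version for 51633 of 51912 genes, and the 279 others stayed in the test. The counts went into edgeR 4.0.16 under R 4.3.3 (filterByExpr, TMM scaling, robust quasi-likelihood F test, 3 against 3 libraries, no litter block, adjusted p under 0.05). The standard error is the size of the log2 fold change over the square root of F. CPM is TMM-scaled, TPM uses the deposited gene length, and folds are ratios of mean CPM. Where a group had 0 reads, the fold is a bound against 3 reads over that group. Intervals and bounds cover counting error or the spread of these libraries only, since the sources used here name no molecular identifiers and repeat copies of 1 molecule may be counted. Libraries were paired by the AGM number of the titles, read as the litter because the series names 3 independent litters, an inference that the labels do not state. Deviations from group means correlated at 0.09, 0.04 and 0.18 within litters 1, 2 and 3. Alternatives were a replicate block, 3 other scalings, a looser filter (at least 1 read), a stricter one (at least 5 CPM in 3 libraries), DESeq2 1.42.0, voom of limma 3.58.1, and leaving out each library or litter. The test was checked on simulated counts.

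Members and lists were chosen with earlier results of these data known. All 32 members are named, with at most 4 called genes a direction from other lists, host and source genes of nested members, and Mrc1. Dnmt1, Trim28, Zfp57, Igf2r, Kcnq1 and the single marker genes were named after their values were seen. Promoters were matched by symbol in a RefSeq table (GRCm38.p6).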

Additional observations from a re-analysis of the deposited data

How the results depend on the processing

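All values are log2 fold changes of CD206pos over CD206neg or counts of genes called. DESeq2 called 1210 genes where edgeR called 617, and leaving out a library or a litter gave 3 to 561, with 3 without litter 2. Imprinted genes called higher numbered 0, against 2 with the litter as a replicate block (Gatm and Impact), 2 with the stricter filter, 2 with limma-voom, 1 with DESeq2 and 0 to 1 with a library or litter left out. Those called lower numbered 2, also with the replicate block (H19 and Slc22a3). They numbered 3 with the looser filter, 3 with the stricter filter, 5 with DESeq2 and 0 to 2 with a library or litter left out. Over the 4 other gene lists 8 were called, against 0 to 5 with a library or litter left out. The median over the tested imprinted genes was -0.76. It was -0.65 with the replicate block, -0.84 with library totals, -0.78 with the looser filter, -0.54 with the stricter filter, -0.68 with limma-voom, and -1.15 to -0.46 with a library or litter left out. Library totals moved the median of all genes to -0.093.

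Of 395 values of single imprinted genes under an alternative, 355 kept direction and side of the threshold, 11 lost and 15 gained the call, and 14 changed sign. Peg3 changed sign to 0.08 with the replicate block and to 0.45 with limma-voom. With a library or litter left out, values ran from -1.15 to 1.50 for Peg3, -2.47 to 2.83 for Mest, -1.97 to 0.43 for Grb10, -2.15 to 0.82 for Nnat, -1.23 to 0.09 for Zrsr1 and -0.51 to 8.61 for Dcn, none of them past the threshold. The cause of these changes was not tested, except that leaving out libraries lowers their number. Other calls that changed with the replicate block were Peg12 and Osbpl5 (lost) and Ltv1 (gained). The 8 genes below the filter had no test in the main fit, having no reads, few reads or reads in few libraries. With the looser filter 29 imprinted genes were tested. Those called there were H19, Peg12 and Slc22a3, all of which also passed the main filter.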
